A study of Taeniopygia guttata with 21 samples.

Results

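The genes described here are the WNT ligands, their receptors and co-receptors, the secreted and membrane proteins that modulate them, and the intracellular relay and feedback genes, as read by RNA sequencing of skin from embryos of the zebra finch (Taeniopygia guttata). They were chosen by symbol (names beginning with WNT, FZD, SFRP, DKK, RSPO, NKD, AXIN, APCDD, TCF7, DACT or DVL, plus a short list of single genes) together with a mean of at least 10 normalised read counts over all libraries. Among the 18202 genes measured, 8546 had a symbol and so could match. Of those, 44 matched, and 40 of the 44 had the required mean. They are 12 ligands, 9 receptors, 11 extracellular modulators and 8 intracellular genes. WNT8A, WNT1, WNT8B and SFRP5 stood below the minimum, with means of 0.13, 0.22, 1.28 and 1.85. The members nearest to it on the inside were ROR1 and WNT9B, with means of 39.1 and 41.0. All 40 passed the filter of the test.

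The study sought genes whose expression is limited to parts of the skin that will later differ in colour. Skin of wild type embryos at HH28, when feather fields form, was dissected from 3 dorsal locations (dorsal anterior, dorsal saddle and dorsal posterior) and from 4 ventral ones (ventral anterior, ventral-most, flank and ventral posterior). There were 3 libraries per location, numbered 3, 8 and 11, so 9 dorsal and 12 ventral libraries in all, holding 12.9 to 23.0 M reads each (M, mega). The labels do not say whether a number stands for an embryo or a pool, nor the sex, so p-values measure the spread between these libraries. The skin pieces hold epidermis and dermis together, so fewer cells of a type and less RNA per cell cannot be told apart.

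WNT proteins are secreted lipid-bearing ligands that bind Frizzled receptors. With LRP5 or LRP6 as co-receptor they stop the destruction of beta-catenin, which then acts with LEF1 and TCF proteins in the nucleus, while other WNT proteins act through ROR receptors and planar polarity proteins without beta-catenin. In bird skin the pathway is known from the formation of the dermis and of feather primordia. Several of its targets, among them NKD1, APCDD1 and NOTUM, encode inhibitors that feed back on it.

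As a description without a test, the median share of the variance of log2 values held by location was 62.3% over the 40 members, against 37.1% over the 14005 genes tested, and that held by the replicate number was 8.3% against 23%. The highest location mean was a median of 3.36 times the lowest, against 1.64 times over all genes tested. It was over 10 times the lowest for 5 members and under 2 times for 7. Dorsal anterior skin held the highest mean of 14 members, the flank of 7 and ventral anterior skin of 6. The lowest mean lay in ventral posterior skin for 9 members and in dorsal anterior skin for 8. Such shares were not counted over all genes tested. An F test in limma, called at a Benjamini-Hochberg adjusted p below 0.05 over all genes tested, found a difference among the 7 locations for 21 of 40 members, where 15.4% of all genes tested were called. Without replicate number 3, 8 or 11 it found 11, 7 and 16. The counts over all genes tested were not taken for these fits.

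**Figure D1:**
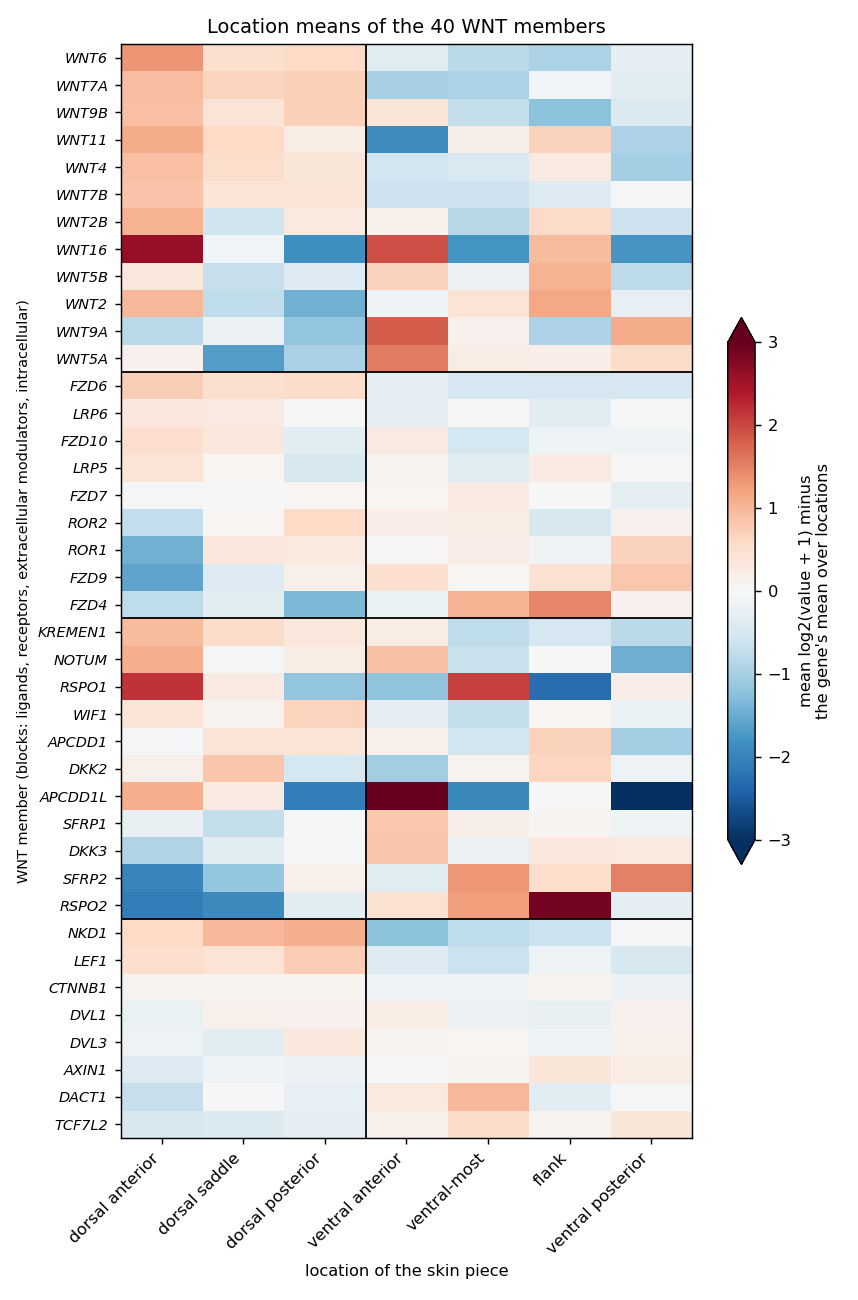
Mean log2(normalised read count + 1) of each member in each of the 7 locations, centred on the member's own mean over locations, with the members grouped by role; colours saturate beyond 3 log2 units either way. APCDD1L in ventral anterior skin, RSPO2 in the flank, and WNT16 in both anterior locations are the strongest positive cells of their rows.

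Dorsal skin was compared with ventral skin by averaging the 3 dorsal and the 4 ventral locations first. Of the 40 members 10 were higher dorsally and 8 were lower, where 17.2% of all genes tested were called, 9.31% as higher and 7.89% as lower. Among the ligands 5 were higher and 2 lower, among the receptors 1 and 2, among the extracellular modulators 2 and 2, and among the intracellular genes 2 and 2. The median log2 fold change over the members was 0.11, against 0.001 over all genes tested. With the replicate number as a block, 25 members were called (14 higher and 11 lower), where 29.2% of all genes were. All 18 called members had the same sign within each of the 3 replicate numbers, as did 12 of the 22 that were not called. The same libraries made the calls, so this is no separate support for them. The share over all genes tested was not counted.

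**Figure D2:**
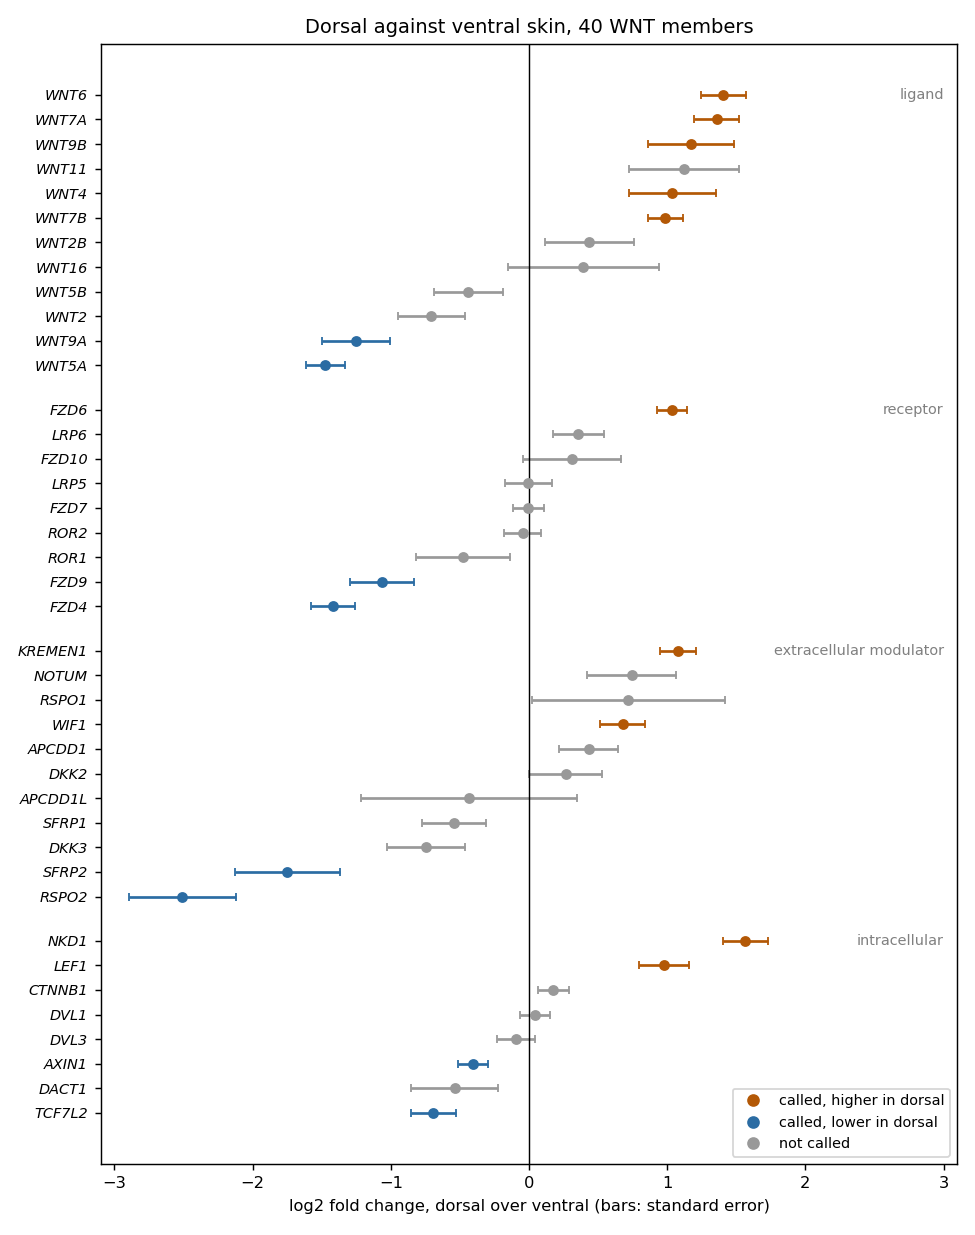
Log2 fold change of dorsal over ventral skin for all 40 members, grouped by role, with the standard error (SE) of the limma fit as bars; orange points were called higher dorsally, blue points were called lower, and grey points were not called. NKD1 (1.57) and WNT6 (1.41) lie farthest to the right and RSPO2 (-2.51) farthest to the left.

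WNT6, a ligand made by ectoderm in bird and mouse embryos, lies on chromosome 7 (10265488 to 10277806). Its lowest, median and highest normalised read counts were 1364, 2375 and 3538 in the 9 dorsal libraries, against 476, 864 and 1373 in the 12 ventral ones. The sides overlapped only through ventral anterior replicate 3, which stood at 1373, just above dorsal saddle replicate 3 at 1364. The log2 fold change was 1.41 (SE 0.16, limma adjusted p = 1.14e-05). Dorsal anterior skin stood highest of the locations, with 3361, 3538 and 2474 in replicates 3, 8 and 11.

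WNT7A (chromosome 12, 793550 to 826577), which in the chick and mouse limb bud is made by the dorsal ectoderm, had a lowest, median and highest count of 344, 448 and 621 in dorsal libraries, against 97.3, 172 and 319 in ventral ones. WNT7B (chromosome 1A, 61860183 to 61946148), a close relative, had 502, 689 and 906 in dorsal libraries, against 222, 350 and 492.8 in ventral ones. For both, every dorsal library stood above every ventral one. WNT7A differed by 1.36 on the log2 scale (SE 0.16, limma adjusted p = 1.82e-05) and WNT7B by 0.99 (SE 0.13, limma adjusted p = 3.76e-05). Together with FZD6 these are the 3 members whose sides did not overlap in any library, where the same held for 0.878% of all genes tested, and for 0.593% with the dorsal libraries above.

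WNT9B and WNT4, ligands known from induction of the mouse kidney tubule, were low in every library and higher dorsally. WNT9B (chromosome 27, 903982 to 915456) ranged from 26.6 to 102 with a median of 53.9 in dorsal libraries, against 11.1 to 57.5 with a median of 18.9 in ventral ones (log2 fold change 1.17, SE 0.31, limma adjusted p = 0.0129). WNT4, on the unplaced part of chromosome 21, ranged from 30.5 to 133 with a median of 60.1 in dorsal libraries, against 10.7 to 57.8 with a median of 28.3 in ventral ones (log2 fold change 1.04, SE 0.32, limma adjusted p = 0.0292). The sides overlapped for both. WNT4 was no longer called when dorsal anterior, dorsal saddle or ventral-most replicate 3 or 8, or dorsal posterior replicate 3, was left out, with log2 fold changes of 0.88 to 1.01 and limma adjusted p of 0.0511 to 0.0716.

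WNT5A, a mesenchymal ligand that acts largely without beta-catenin through ROR receptors, was lower dorsally. It lies on chromosome 12 (7946133 to 7954719). Its lowest, median and highest counts were 765, 1518 and 3949 in dorsal libraries, against 2877, 4764 and 12295 in ventral ones. Only dorsal anterior libraries, at 3613, 2830 and 3949 in replicates 3, 8 and 11, reached the ventral range or came close to it. Dorsal saddle skin stood lowest of all, at 1094, 765 and 1130, and ventral anterior skin highest, at 9883, 6535 and 12295. The log2 fold change between the sides was -1.47 (SE 0.14, limma adjusted p = 2.43e-06).

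WNT9A, a ligand known from developing joints, was also lower dorsally, with 29.6, 72.1 and 163 as lowest, median and highest count in dorsal libraries, against 51.8, 196 and 549 in ventral ones (log2 fold change -1.25, SE 0.25, limma adjusted p = 0.00165). The flank, at 72.5, 58.5 and 51.8 in replicates 3, 8 and 11, stood within the dorsal range, and the other 3 ventral locations stood above the flank, at 92.9 to 549. Of the 12 ventral libraries 7 stood above every dorsal one.

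The other 5 ligands were not called between the sides. WNT11, which marks early dermal cells in the chick, ranged from 1532 to 6830 with a median of 3659 in dorsal libraries, against 121 to 4307 with a median of 2070 in ventral ones (log2 fold change 1.13, SE 0.40, limma adjusted p = 0.061, and 0.0183 with the replicate block). WNT2, a ligand of embryonic mesenchyme known from the mouse lung, ranged from 33.9 to 594 with a median of 155 in dorsal libraries, against 123 to 513 with a median of 278 in ventral ones (log2 fold change -0.71, SE 0.24, limma adjusted p = 0.054, and 0.0419 with the replicate block). Both sides overlapped widely for both genes. WNT2B, WNT5B and WNT16 had log2 fold changes of 0.44, -0.44 and 0.39, with limma adjusted p of 0.423, 0.27 and 0.716.

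**Figure D3:**
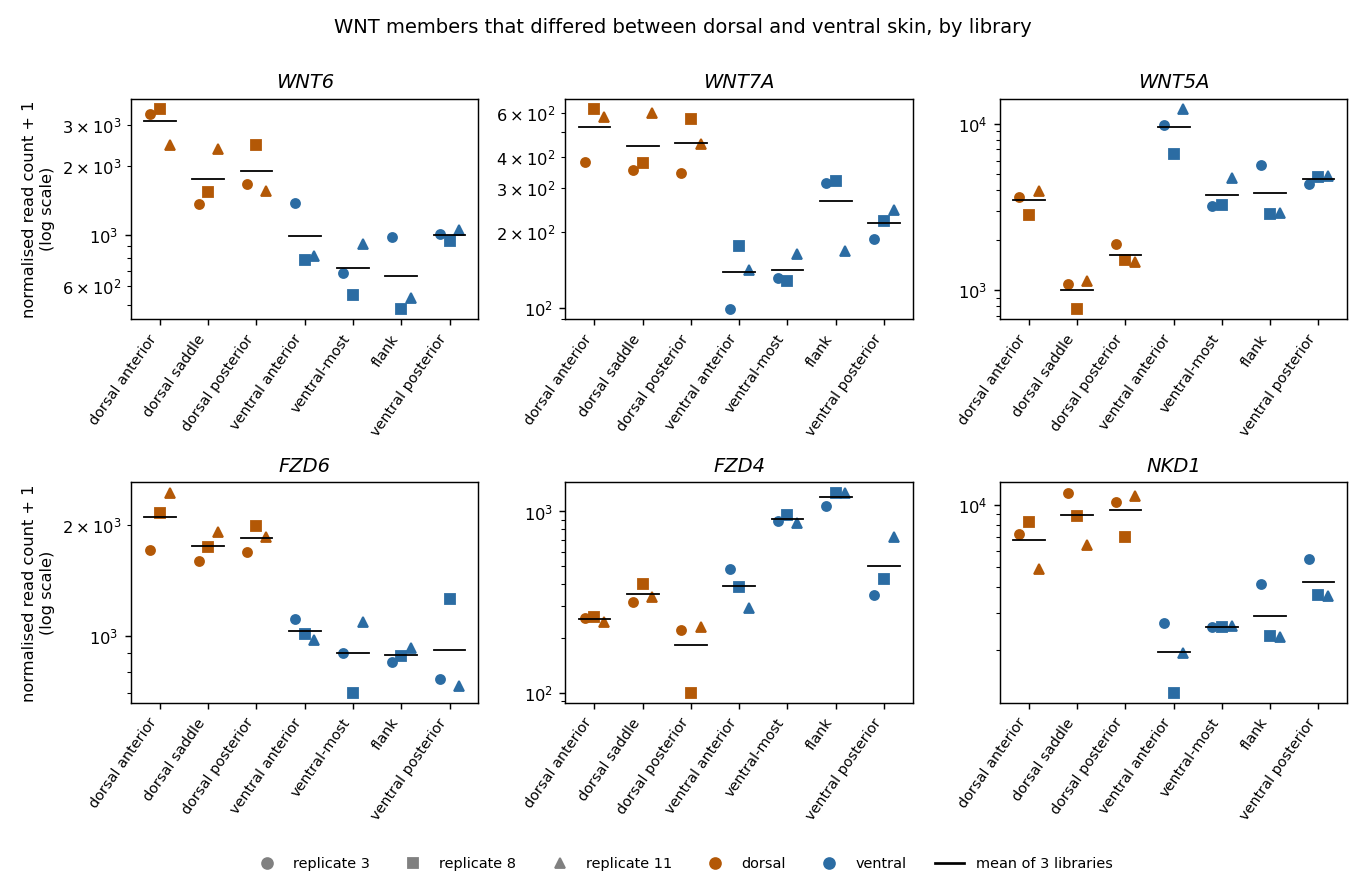
Normalised read count plus 1 on a log axis of WNT6, WNT7A, WNT5A, FZD6, FZD4 and NKD1 in each library, with the 3 dorsal locations left of the 4 ventral ones; a point is a library and a bar the location mean. WNT7A and FZD6 show no overlap between the sides, WNT5A reaches 12295 in ventral anterior skin, and FZD4 is highest in the flank and in ventral-most skin.

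Epidermal markers were higher dorsally, as were the ligands WNT6, WNT7A, WNT7B, WNT9B and WNT4, while WNT5A and WNT9A went the other way. Of the 20 epidermal markers listed 11 had an entry, and 8 of these, among them DSP, TP63 and ESRP2, were higher dorsally and 0 lower by limma. Their summed count was 21451 to 43402 in dorsal libraries and 8926 to 20509 in ventral ones, without overlap, and DSP, ESRP2 and TP63 were above 0 in every library. Their mean log2 value differed by 0.99 between the sides. With that mean as a covariate limma called 1 member, NKD1 (log2 fold change 1.97, SE 0.38, adjusted p = 0.0233), and 195 of all genes tested. WNT6 then stood at 1.198 (SE 0.38), WNT7A at 0.78 (SE 0.36), WNT7B at 0.31 (SE 0.24), FZD6 at 0.64 (SE 0.23) and WNT9B at -0.40 (SE 0.60). WNT4 stood at 1.36 (SE 0.75), LEF1 at 1.29 (SE 0.42), KREMEN1 at 0.95 (SE 0.31) and WIF1 at 0.75 (SE 0.39). Among the members lower dorsally FZD4 stood at -1.51 (SE 0.38), RSPO2 at -2.58 (SE 0.93) and WNT5A at -0.98 (SE 0.32). WNT9A stood at -1.53 (SE 0.59), SFRP2 at -1.845 (SE 0.91), AXIN1 at -0.44 (SE 0.26), TCF7L2 at -0.34 (SE 0.38) and FZD9 at -0.27 (SE 0.51). Markers of other cell types moved between the sides too. Of 5 melanocyte markers 5 were higher dorsally, with sums of 1336 to 5606 in dorsal and 132 to 1383 in ventral libraries, and of 9 markers of dermis and mesenchyme 1 was higher and 3 were lower, with sums of 170890 to 258890 in dorsal and 166740 to 303370 in ventral libraries. Of 10 markers of feather placode and dermal condensation 4 were higher dorsally and 1 was lower. Their sums were 2749 to 6355 in dorsal and 1569 to 6623 in ventral libraries. Of 6 neuron markers 1 was higher and 2 were lower, and of 5 cartilage markers 2 were higher and 1 was lower. The part of these other cell types in the members' differences was not tested. Since the epidermal covariate follows body side closely, epidermal content and side cannot be told apart here for these genes.

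Among the receptors FZD6, a Frizzled that orients hair follicles in mouse skin, was higher dorsally. It lies on chromosome 2 (136145668 to 136179811). It had a lowest, median and highest count of 1595, 1860 and 2453 in dorsal libraries, against 699, 912 and 1258 in ventral ones, and the sides did not overlap. Its log2 fold change was 1.03 (SE 0.11, limma adjusted p = 4.35e-06).

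FZD4, the receptor for norrin in retinal vessels, was lower dorsally. It lies on chromosome 1 (82859635 to 82860975). It had a lowest, median and highest count of 98.8, 259 and 397 in dorsal libraries, against 294, 793 and 1271 in ventral ones (log2 fold change -1.42, SE 0.16, limma adjusted p = 9.4e-06). All libraries of the flank (1077 to 1271) and of ventral-most skin (861 to 959) stood above every dorsal one, whereas ventral anterior and ventral posterior libraries overlapped with dorsal saddle. Endothelial markers moved the same way: 5 of 8 were lower dorsally, with sums of 1111 to 3940 in dorsal and 1725 to 6292 in ventral libraries, and of 6044 to 6292 in ventral-most skin. In the flank, where FZD4 was highest, the endothelial sum was 1725, 2427 and 4920 as lowest, median and highest, the lowest median of the ventral locations. Over the 8 markers the median log2 fold change of the flank over the other ventral locations was -0.94. The part of endothelium in the dorsal to ventral difference of FZD4 was not tested.

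FZD9, a Frizzled named from the deposited name alone, was lower dorsally as well, with 52.5, 110 and 330 as lowest, median and highest count in dorsal libraries, against 162, 239 and 375 in ventral ones (log2 fold change -1.07, SE 0.23, limma adjusted p = 0.00347). Dorsal anterior skin, at 52.5, 59.9 and 57.6 in replicates 3, 8 and 11, stood below every ventral library, and dorsal posterior skin overlapped with the ventral range. The other 6 receptors (FZD7, FZD10, the co-receptors LRP5 and LRP6, and the WNT5A receptors ROR1 and ROR2) were not called. Their log2 fold changes lay between -0.48 for ROR1 and 0.36 for LRP6, and LRP6 was called with the replicate block alone (limma adjusted p = 0.216, blocked 0.0445). FZD7 was near level, with a median of 1590 in dorsal and 1480 in ventral libraries and a log2 fold change of -0.004 (SE 0.11), whose sign turned with edgeR (0.005) and with TMM rescaling (0.002).

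The extracellular modulators included the member with the largest difference between the sides. RSPO2, an R-spondin that amplifies WNT signalling by protecting Frizzled receptors from degradation, had a lowest, median and highest count of 4.23, 20.8 and 68.2 in dorsal libraries, against 15.7, 124 and 596 in ventral ones. The overlap came from ventral anterior replicate 3 and ventral posterior replicates 3 and 8, and 9 of the 12 ventral libraries stood above every dorsal one. The log2 fold change was -2.51 (SE 0.39, limma adjusted p = 0.00019). In mouse and chick RSPO2 is known from the limb bud, and the limb bud and body wall markers HAND2 and FGF10 were also lower dorsally, with sums over 4 such markers of 3.39 to 247 in dorsal and 440 to 3871 in ventral libraries. Within ventral skin the sum was highest in ventral posterior skin, at 2470 to 3871, where RSPO2 had its lowest ventral mean, 56.2, and it was 716 to 1349 in the flank, where RSPO2 averaged 443. The sum also holds PITX1 and LHX9, whose highest counts were 2111 and 1587, against 1041 for HAND2 and 337 for FGF10. It therefore need not follow HAND2 and FGF10 by location. The part of these tissues in the RSPO2 difference was not tested.

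SFRP2, a secreted Frizzled-like protein that binds WNT ligands, was lower dorsally, with 87.2, 517 and 1015 as lowest, median and highest count in dorsal libraries, against 270, 1078 and 3609 in ventral ones (log2 fold change -1.75, SE 0.38, limma adjusted p = 0.0033). By location mean ventral posterior and ventral-most skin were highest and dorsal anterior skin was lowest, at 273, 189 and 118 in replicates 3, 8 and 11, while the lowest single library was dorsal saddle replicate 11 at 87.2.

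KREMEN1, a membrane receptor that removes LRP6 together with DKK proteins, was higher dorsally. It had 1534, 1868 and 3157 as lowest, median and highest count in dorsal libraries, against 633, 893 and 2044 in ventral ones (log2 fold change 1.08, SE 0.13, limma adjusted p = 1.92e-05). The overlap came from ventral anterior replicates 8 and 11, at 1717 and 2044. WIF1, a secreted protein that binds WNT ligands, was higher dorsally too (log2 fold change 0.68, SE 0.16, limma adjusted p = 0.00726), with 6863 to 18024 in dorsal and 4143 to 9613 in ventral libraries.

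The other 7 extracellular modulators were not called between the sides. With the replicate block 4 of them had a limma adjusted p below 0.05: DKK3, a divergent Dickkopf (log2 fold change -0.74, SE 0.28, adjusted p = 0.0837, blocked 0.0195), NOTUM, an enzyme that strips the lipid from WNT ligands (0.74, SE 0.32, adjusted p = 0.127, blocked 0.0384), SFRP1 (-0.54, SE 0.23, adjusted p = 0.127, blocked 0.00646) and APCDD1, a membrane inhibitor mutated in a human hair loss disorder (0.43, SE 0.21, adjusted p = 0.187, blocked 0.0445). DKK2, RSPO1 and APCDD1L had log2 fold changes of 0.27, 0.72 and -0.43 and limma adjusted p of 0.575, 0.565 and 0.787.

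NKD1, an intracellular feedback inhibitor that binds Dishevelled, had the largest rise of any member on the dorsal side. It lies on chromosome 11 (10103838 to 10207826). Its lowest, median and highest counts were 4897, 8267 and 11468 in dorsal libraries, against 1237, 2596 and 5467 in ventral ones. The sides overlapped only through ventral posterior replicate 3 at 5467 and dorsal anterior replicate 11 at 4897. The log2 fold change was 1.57 (SE 0.16, limma adjusted p = 5.04e-06). Within the replicate numbers 3, 8 and 11 it was 1.42, 1.81 and 1.47.

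LEF1, a nuclear partner of beta-catenin, was higher dorsally, with 7383, 10684 and 13302 as lowest, median and highest count in dorsal libraries, against 3690, 4504 and 12564 in ventral ones (log2 fold change 0.98, SE 0.18, limma adjusted p = 0.000929). The ventral maximum was flank replicate 3, and every other ventral library stood at 6350 or less, below all dorsal ones. TCF7L2, another nuclear partner, was lower dorsally (log2 fold change -0.69, SE 0.16, limma adjusted p = 0.00625), with 101, 167 and 197 in dorsal libraries as lowest, median and highest count, against 180, 243 and 415 in ventral ones.

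AXIN1, the scaffold of the complex that destroys beta-catenin, was lower dorsally by a small margin (log2 fold change -0.40, SE 0.11, limma adjusted p = 0.0145). Its counts were 1684, 2734 and 3030 as lowest, median and highest in dorsal libraries, against 2158, 3580 and 4391 in ventral ones, and only ventral anterior replicate 3 of the ventral libraries stood within the dorsal range. CTNNB1, which encodes beta-catenin itself, ranged from 21210 to 38859 in dorsal and from 19234 to 35318 in ventral libraries (log2 fold change 0.18, SE 0.11, limma adjusted p = 0.332). The Dishevelled genes DVL1 and DVL3 and the Dishevelled-binding DACT1 were not called either, with log2 fold changes of 0.05, -0.10 and -0.54.

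In this comparison 9 members (WNT5A, WNT6, WNT7A, WNT7B, FZD4, FZD6, RSPO2, KREMEN1 and NKD1) were called whichever replicate number was left out, and 9 (WNT4, WNT9A, WNT9B, FZD9, SFRP2, WIF1, AXIN1, TCF7L2 and LEF1) lost their call without at least 1 of the 3 numbers. The lost calls were WNT9A without number 3, WNT4, FZD9 and WIF1 without 3 or 8, SFRP2 without 8 or 11, WNT9B without 11, and AXIN1, TCF7L2 and LEF1 without 8, with limma adjusted p of 0.0538 to 0.278. Of these WNT4 (0.65 without number 3) and SFRP2 (-1.10 without number 11) moved most on the log2 scale. Over all genes tested the calls fell from 2409 to 1525, 813 and 1709 without number 3, 8 and 11. The share of all called genes that kept their call in all 3 fits was not counted, so the members' losses have no background here. WNT9B (0.93, limma adjusted p = 0.0717) and AXIN1 (-0.34, limma adjusted p = 0.0682) were also not called without the flank.

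Within dorsal skin, dorsal anterior and dorsal posterior were compared, which by itself does not show a gradient along the body. The summed count of the epidermal markers was 35157 to 43402 in dorsal anterior and 21451 to 25044 in dorsal posterior libraries. Limma called 1 of the 11 markers, as higher anteriorly. The part of epidermal content in this comparison was not tested. Limma called 5 of 40 members, 3 higher and 2 lower anteriorly, where 2.27% of all genes tested were called, 0.757% as higher and 1.51% as lower. WNT16, a ligand of skin and joints in the mouse, had counts of 532, 241 and 760 in dorsal anterior replicates 3, 8 and 11, against 16.6, 10.2 and 47.1 in dorsal posterior ones. WNT2 had 315, 594 and 431 in dorsal anterior libraries, against 92.1, 155 and 33.9 in dorsal posterior ones. Neither gene's groups overlapped, with log2 fold changes of 4.45 (SE 1.01, limma adjusted p = 0.0254) and 2.44 (SE 0.45, limma adjusted p = 0.00599).

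WNT5A was the third ligand higher anteriorly, with 3613, 2830 and 3949 in dorsal anterior libraries, against 1890, 1518 and 1469 in dorsal posterior ones (log2 fold change 1.09, SE 0.27, limma adjusted p = 0.0379). The 2 members lower anteriorly were receptors. FZD9 stood at 52.5, 59.9 and 57.6 in dorsal anterior replicates 3, 8 and 11, against 227, 122 and 257 in dorsal posterior ones (log2 fold change -1.75, SE 0.43, limma adjusted p = 0.039). ROR2 (chromosome Z, 6265544 to 6306809), a receptor for WNT5A, stood at 2162, 2344 and 4572, against 7509, 6405 and 8025 in dorsal posterior libraries (log2 fold change -1.35, SE 0.25, limma adjusted p = 0.00617). The groups did not overlap for any of these genes. Like WNT16 and WNT2, they were looked at because they were called. The share of all genes tested without such overlap was not counted, so this is no separate support.

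In this comparison the replicate block, with which 5.28% of all genes were called, added KREMEN1 (log2 fold change 0.63, SE 0.24, limma adjusted p = 0.261, blocked 0.0247). The 34 further members had log2 fold changes from -2.12 for SFRP2 (SE 0.70, limma adjusted p = 0.159) to 3.35 for RSPO1 (SE 1.29, limma adjusted p = 0.27). Without replicate number 3, 8 or 11 limma called 0, 0 and 2 members. Over all genes tested it called 70, 26 and 175, against 318 with all libraries. WNT2 and ROR2 were called with any single library left out, but when only the compared libraries were fitted they were not (limma adjusted p of 0.111 and 0.0965), nor was FZD9 (0.0872), and WNT5A and WNT16 were. WNT16 lost its call when either of dorsal anterior replicates 3 and 11, or of dorsal posterior replicates 3 and 8, was left out (log2 fold changes of 3.99 to 4.34), and WNT5A without dorsal anterior replicate 3 or 11 or any dorsal posterior library (0.98 to 1.199). FZD9 lost it without any dorsal anterior library, dorsal posterior replicate 3 or 11 (-1.79 to -1.54), or, at the same fold change, any ventral-most library or ventral posterior replicate 3. EdgeR did not call WNT16 (edgeR adjusted p = 0.0543). Limma did not call WNT5A without trend and robust moderation (limma adjusted p = 0.0609), nor FZD9 with quantile normalisation (limma adjusted p = 0.0629).

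Within ventral skin, limma called 2 of 40 members between ventral anterior and ventral posterior, both higher anteriorly, where 1.76% of all genes tested were called and 0.921% as higher. APCDD1L, a paralog of the WNT inhibitor APCDD1 (chromosome 20, 12393006 to 12397670), had counts of 196, 12655 and 8146 in ventral anterior replicates 3, 8 and 11, against 0, 16.4 and 17.4 in ventral posterior ones. Ventral anterior replicates 8 and 11 stood far above every other library of the series, the next highest being dorsal anterior replicate 3 at 329. The log2 fold change was 8.64 (SE 1.44, limma adjusted p = 0.00399), and 10.53 without ventral anterior replicate 3. It was called with any single library left out, but not when only the compared libraries were fitted (limma adjusted p = 0.129), nor without replicate number 8 (8.20, limma adjusted p = 0.192) or 11 (8.56, limma adjusted p = 0.106). In the other locations APCDD1L averaged 164 in dorsal anterior, 74.4 in dorsal saddle, 25.0 in dorsal posterior, 53.8 in flank and 17.4 in ventral-most skin.

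KREMEN1 stood at 1074, 1717 and 2044 in ventral anterior libraries, against 633, 892 and 807 in ventral posterior ones (log2 fold change 1.02, SE 0.24, limma adjusted p = 0.0384), and the groups did not overlap. How many of all genes tested were without such overlap was not counted. It lost its call without any 1 of the ventral anterior replicates 8 and 11 or the ventral posterior replicates 3, 8 and 11, with log2 fold changes of 0.82 to 1.12 and limma adjusted p of 0.0563 to 0.183. It also lost it, at the same fold change, without dorsal anterior replicate 8, dorsal posterior replicate 3 or ventral-most replicate 3, with limma adjusted p of 0.0506 to 0.0516.

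With the replicate block 9 members were called between ventral anterior and ventral posterior, where 4.21% of all genes were. The 7 added were WNT16 (log2 fold change 3.70, SE 1.01), NOTUM (2.35, SE 0.59), WNT5B (1.49, SE 0.46), APCDD1 (1.16, SE 0.39), WNT5A (0.99, SE 0.27), SFRP1 (0.93, SE 0.43) and NKD1 (-1.16, SE 0.30), with limma adjusted p of 0.0523 to 0.439 without the block and 0.00558 to 0.0457 with it. The other 31 members had log2 fold changes from -1.87 for SFRP2 to 0.78 for WNT9B.

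**Figure D4:**
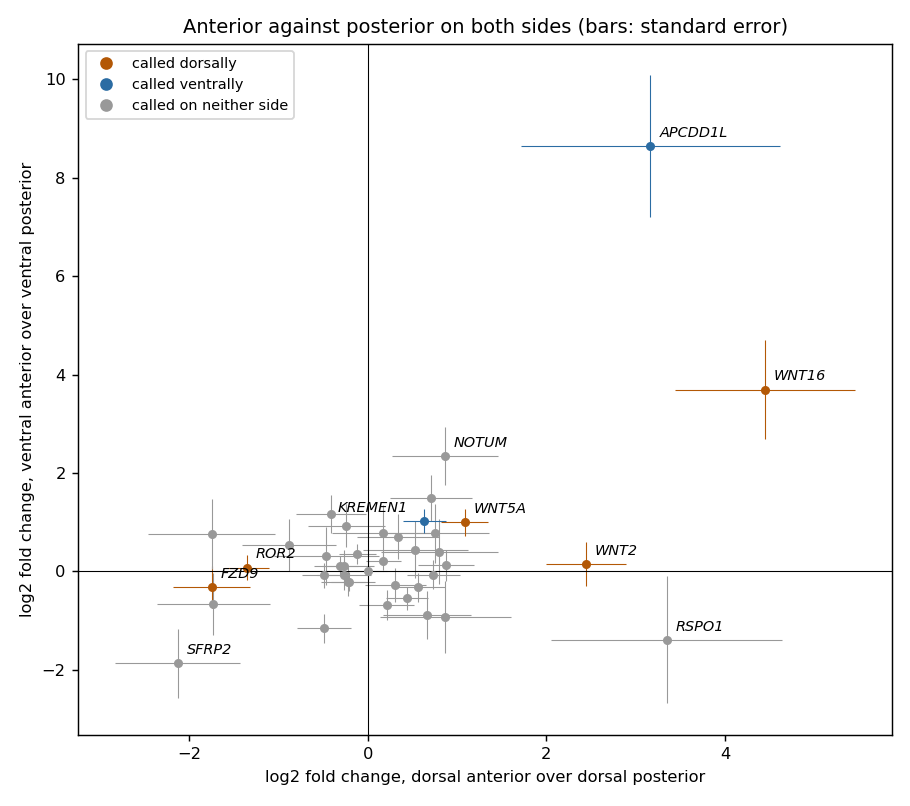
Log2 fold change of dorsal anterior over dorsal posterior skin (x axis) against that of ventral anterior over ventral posterior skin (y axis), with a point for each member. WNT16 lies high on both axes (4.45 and 3.70), WNT5A near 1 on both (1.09 and 0.99), while WNT2 (2.44 and 0.14) and ROR2 (-1.35 and 0.08) lie near 0 on the ventral axis and APCDD1L highest on it at 8.64.

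Whether the anterior to posterior difference itself differed between the sides was tested as an interaction. Limma called 0 of 40 members, where 0.828% of all genes tested were called. An unadjusted limma p below 0.05 was found for 10 members. The share of all genes tested below that unadjusted p was not counted, so the 10 have no background here. EdgeR called 0 members and 99 of all genes tested, and DESeq2 called 3 and 380. With the replicate block 2 were called, where 2.93% of all genes were, ROR2 (difference of log2 fold changes -1.43, SE 0.35, limma adjusted p = 0.0717, blocked 0.0312) and APCDD1 (-1.57, SE 0.55, limma adjusted p = 0.266, blocked 0.0452). WNT2 differed by 2.30 (SE 0.64, limma adjusted p = 0.117) and APCDD1L by -5.47 (SE 2.04, limma adjusted p = 0.311).

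Ventral anterior replicate 3 stood apart from replicates 8 and 11 of its location for several members. It held the lowest WNT11 count of all libraries, at 121, beside 815 and 2119 in ventral anterior replicates 8 and 11, and the highest RSPO1 count, at 684, beside 3.68 and 32.7. RSPO1, the other R-spondin measured, was otherwise highest in dorsal anterior skin (423, 547 and 509 in replicates 3, 8 and 11) and ventral-most skin (383, 454 and 549), and low in the flank (9.83, 21.2 and 47.7). The location means of RSPO1 thus spanned 18.8-fold.

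**Figure D5:**
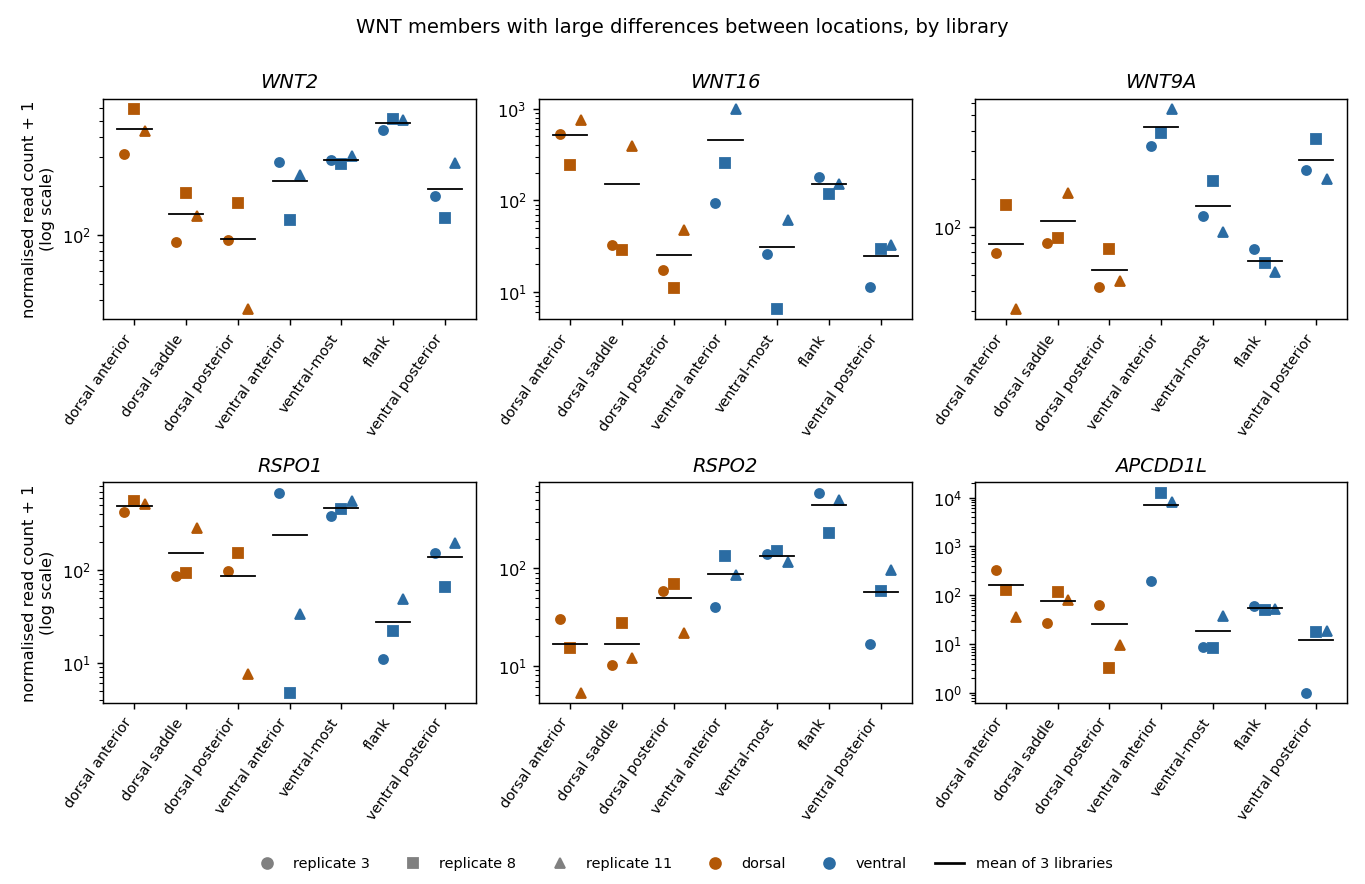
Normalised read count plus 1 on a log axis of WNT2, WNT16, WNT9A, RSPO1, RSPO2 and APCDD1L in each library of the 7 locations; a point is a library and a bar the location mean. RSPO2 is highest in the flank (230 to 596), APCDD1L in 2 of the 3 ventral anterior libraries, and WNT2 in dorsal anterior skin and the flank.

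The dorsal saddle was compared with the mean of the other dorsal locations. Limma called 1 of 40 members, WNT5A, where 0.143% of all genes tested were called. WNT5A stood at 1094, 765 and 1130 in dorsal saddle replicates 3, 8 and 11, below all 6 libraries of dorsal anterior (3613, 2830 and 3949) and dorsal posterior skin (1890, 1518 and 1469). How many of all genes tested were so separated was not counted. The log2 fold change was -1.26 (SE 0.23, limma adjusted p = 0.0426). The adjusted p was 0.0668 with edgeR and 0.000219 with DESeq2, and the call was lost without any 1 replicate number (log2 fold changes of -1.35 to -1.17), without 8 of the 9 dorsal libraries taken singly (dorsal anterior replicate 8 excepted), and without ventral-most replicate 3 or 8 or any ventral posterior library. The other 39 members had log2 fold changes from -1.26 for WNT2B (SE 0.52, limma adjusted p = 0.853) to 1.01 for DKK2 (SE 0.42, limma adjusted p = 0.905).

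The flank was compared with the mean of the other ventral locations. Limma called 3 of 40 members, 2 higher and 1 lower, where 3.05% of all genes tested were called, 1.61% as higher and 1.44% as lower. RSPO2 stood at 596, 230 and 504 in flank replicates 3, 8 and 11, against 15.7 to 149 in the other 9 ventral libraries, without overlap (log2 fold change 2.402, SE 0.58, limma adjusted p = 0.0309). FZD4 stood at 1077, 1271 and 1269 in flank libraries, against 294 to 959 in the others, again without overlap (log2 fold change 1.14, SE 0.24, limma adjusted p = 0.0136). WNT9A was lower, at 72.5, 58.5 and 51.8 in flank libraries, against 92.9 to 549 in the others (log2 fold change -1.95, SE 0.37, limma adjusted p = 0.00761). The share of all genes tested without overlap between flank and other ventral libraries was not counted.

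RSPO2 was not called without flank replicate 3, 8 or 11 (log2 fold changes of 2.13, 2.82 and 2.25, with limma adjusted p of 0.164, 0.0545 and 0.11), nor was FZD4 without flank replicate 8 or 11 (1.101 and 1.102, with limma adjusted p of 0.0776 and 0.0507). Without replicate number 3, 8 or 11 the comparison gave 0, 0 and 5 calls. Over all genes tested it gave 102, 17 and 382, against 427 with all libraries. With the replicate block 5 members were called, where 7.29% of all genes were, adding APCDD1 (1.15, SE 0.32, limma adjusted p = 0.0593, blocked 0.0059) and WNT5B (1.13, SE 0.38, limma adjusted p = 0.134, blocked 0.0224). WNT2 had its highest location mean in the flank, at 488 ± 39.2 (SD, n = 3), close to dorsal anterior skin at 447 ± 140 (SD, n = 3), and their libraries overlap.

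Ventral-most skin was compared with the mean of the other ventral locations. Limma called 0 of 40 members, where 0.678% of all genes tested were called. For 7 members the unadjusted limma p was below 0.05, a share not counted over all genes tested. EdgeR and DESeq2 each called 0 members. Over all genes tested they called 88 and 316. The log2 fold changes ran from -2.83 for APCDD1L (SE 1.18) to 3.16 for RSPO1 (SE 1.06, limma adjusted p = 0.26).

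The 5 genes that mark the set across the 7 locations had different orders. By location mean NKD1 was highest in dorsal posterior skin (9481 ± 2197, SD, n = 3), then dorsal saddle (8924 ± 2514), dorsal anterior (6802 ± 1727), ventral posterior (4256 ± 1050), flank (2924 ± 1050), ventral-most (2590 ± 17.7) and ventral anterior skin (1960 ± 737). The libraries of each pair of neighbours in this order overlap. Neighbours in this order were not tested against each other. WNT6 was highest in dorsal anterior skin (3125 ± 570, SD, n = 3), then dorsal posterior (1894 ± 487), dorsal saddle (1761 ± 539), ventral posterior (1002 ± 57.9), ventral anterior (989 ± 333), ventral-most (717 ± 185) and flank (665 ± 277). Here dorsal anterior skin did not overlap with dorsal posterior skin, nor dorsal saddle with ventral posterior skin, and the other neighbours overlapped.

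WNT5A was highest in ventral anterior skin (9571 ± 2893, SD, n = 3), followed by ventral posterior (4660 ± 304), flank (3809 ± 1605), ventral-most (3723 ± 880), dorsal anterior (3464 ± 574), dorsal posterior (1626 ± 230) and dorsal saddle skin (996 ± 201). From ventral posterior to dorsal anterior skin each location overlapped with its neighbour in this order, and ventral anterior, dorsal posterior and dorsal saddle skin each stood clear of their neighbours. For WNT2 the flank and dorsal anterior skin were followed by ventral-most (289 ± 16.8), ventral anterior (213 ± 81.0), ventral posterior (191 ± 76.2), dorsal saddle (133 ± 46.0) and dorsal posterior skin (93.8 ± 60.7). Dorsal anterior and ventral-most skin did not overlap, and the other neighbours did.

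Further genes of the pathway were taken from a list of 61 (secretion factors, planar polarity genes, kinases, nuclear co-factors), of which 33 had an entry in the table. These genes had 34 entries. Of 33 entries tested 6 were higher and 6 lower dorsally by limma, where 9.31% and 7.89% of all genes tested were, and their median log2 fold change was 0.06. NXN was tested with both of its entries. The entry at 0.39 (SE 0.10, limma adjusted p = 0.0139) was called, and that at 0.32 (SE 0.12, limma adjusted p = 0.0828) was not. CELSR1, a planar polarity cadherin that aligns hair follicles in the mouse, was higher dorsally (log2 fold change 1.501, SE 0.11), as were the polarity gene VANGL1 (0.85, SE 0.20), DAAM1, a formin that binds Dishevelled (0.80, SE 0.16), and SOSTDC1, a secreted inhibitor of WNT and BMP signals (0.71, SE 0.18), with limma adjusted p of 1.77e-07 to 0.0082. Among the called genes the largest falls were in FRZB, a relative of the SFRP genes (-0.98, SE 0.23), PRICKLE1, a polarity gene (-0.59, SE 0.17), GPC4, a glypican (-0.53, SE 0.17), and the cell cycle gene CCND1 (-0.46, SE 0.11), with limma adjusted p of 0.00556 to 0.0366.

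Limma called 2 of these 33 entries between dorsal anterior and dorsal posterior skin, where 2.27% of all genes tested were called. Both were lower anteriorly: LGR6, a receptor for R-spondins (log2 fold change -3.37, SE 0.77, limma adjusted p = 0.026), and GPC4 (-1.22, SE 0.31, limma adjusted p = 0.047). EdgeR called 0 of the entries there, and 270 of all genes tested. WLS, which carries WNT ligands to the cell surface, differed in its anterior to posterior contrast between the sides (-0.93, SE 0.20, limma adjusted p = 0.0363), as did CELSR1 (1.37, SE 0.30, limma adjusted p = 0.0391). They were the 2 of 33 entries that limma called for this difference, where 0.828% of all genes tested were called. Without replicate number 3 or 8 limma called 0 of all genes tested for it, so both calls were lost, and without number 11 it called 37. The median difference over the 11 epidermal markers was 0.973, with 1 of them called. The part of epidermal content in these differences was not tested.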

How the data were processed

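RNA from skin of 7 locations was amplified with SMART-Seq v4 (full-length cDNA from polyadenylated RNA) and made into Nextera XT libraries, per the labels' protocols. Tools named in the submitters' processing notes are STAR 2.4.0, DESeq2, SAMtools, Picard and FastQC. Not given in the sources used here are the build of the printed coordinates, the annotation and the counting program. The authors deposited a normalised signal for each gene: its reads scaled by the library's DESeq2 size factor, per the deposited table's name and column headers. Dividing by each library's smallest step gave whole reads for 100.0% of values within 0.01 reads. No molecular identifiers were used, so reads are not independent molecules. Reads from overlapping genes on opposite strands cannot be told apart.

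Symbols came from a RefSeq gene table (assembly bTaeGut7.mat, names only) by Entrez identifier, or from the deposited name (WNT11 and FZD9). Other pathway genes that the symbols would match, such as AXIN2 and DKK1, had no entry under those symbols and so are not covered here.

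Limma 3.58.1 in R 4.3.3 was fitted to log2(value + 1), with trend and robust moderation, on 14005 genes with at least 10 in at least 3 libraries, all 7 locations in one fit. Genes were called below a Benjamini-Hochberg adjusted p of 0.05 over all genes tested. A fold change is a difference between means on that log2 scale, which understates it for low genes. Script output was tested on simulated data. These held a dorsal to ventral effect alone, without effects of location or replicate number. They therefore do not show the error rate of the fit on the present libraries. The members, lists and the rule for naming genes were chosen with earlier results of these data known. The rule names every member, prints each library or location for WNT5A, WNT6, WNT2, NKD1, APCDD1L and the up to 4 called members per direction with the largest fold change, and a fold change or a range for the rest. Alternatives were edgeR 4.0.16 (TMM) and DESeq2 1.42.0 on recovered reads (edgeR called 2370 and DESeq2 2937 genes between the sides, limma 2409), other scalings, pseudocounts, filters and moderation, an epidermis score, fewer locations, left-out libraries, and the replicate number as a block. Deviations from location means correlated at 0.27 to 0.53 in the 63 pairs of libraries with the same number, so the numbers pair the libraries. In the 126 pairs of libraries that differed in number and location the correlations were -0.32 to -0.05. Deviations cancel within each location, so these negative values follow from the positive ones and are no separate support. The main limma fit leaves this pairing by number out, and the fit with the replicate block takes it in. What a number stands for is not in the labels.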

Additional observations from a re-analysis of the deposited data

Results flagged for a closer look

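In each of 40 members the highest and lowest of the 9 dorsal libraries were set against the others by Dixon's test at the 95% level. By it chance flags about 1 in 20 groups drawn from 1 population, and 4 were flagged. The 9 libraries span 3 locations that can differ, so this rate need not hold here. FZD4 was lowest in dorsal posterior replicate 8, at 98.8 normalised read counts. RSPO1 was lowest in dorsal posterior replicate 11, at 6.57. WIF1 was highest in dorsal posterior replicate 11, at 18020. AXIN1 was lowest in dorsal anterior replicate 3, at 1684. Groups of 3 libraries, and the 12 ventral libraries together, are not covered by this test. The part of these libraries in the comparisons is given by the fits without them.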

How the results depend on the processing

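Between dorsal and ventral skin the number of members called was 18, and 1 with the epidermis score as covariate. It was 12 to 16 without a replicate number, and 17 to 19 without 1 library. Over all genes tested 2409 were called, and 195 with the epidermis score. Without replicate number 3, 8 or 11 this count was 1525, 813 and 1709. Fits of the compared libraries alone called 2 members between dorsal anterior and dorsal posterior, 0 between ventral anterior and ventral posterior, and 5 for the flank. Over all genes tested they called 128, 41 and 228, against 318, 246 and 427 in the main fit. DESeq2 called 7 members in ventral anterior against ventral posterior, 3 in the difference between the sides and 7 for the flank. The replicate block called 9, 2 and 5. Over all genes tested DESeq2 called 504, 380 and 774 and the block 589, 411 and 1021. The main fit called 246, 116 and 427 of all genes. Without trend and robust moderation the ventral anterior comparison gave 1, and 225 of all genes tested. The single saddle call became 0 with edgeR, without a filter, and without trend and robust moderation. Over all genes tested these fits called 14, 11 and 9, against 20 in the main fit. Leaving out a replicate number gave 0 to 2 calls for each anterior to posterior comparison and 0 to 1 for their difference. It gave 0 to 0 for the saddle and for ventral-most skin, 0 to 5 for the flank and 7 to 16 for any location. Over all genes tested it gave 26 to 175 for dorsal anterior, 27 to 165 for ventral anterior and 0 to 37 for their difference. For the saddle it gave 0 to 4, for ventral-most skin 0 to 39 and for the flank 17 to 382. Leaving out 1 library gave 2 to 5 calls for dorsal anterior and 1 to 5 for ventral anterior and for the flank. It gave 0 to 1 for the difference, the saddle and ventral-most skin, and 17 to 23 for any location. Over all genes tested it gave 165 to 366 for dorsal anterior, 135 to 305 for ventral anterior and 165 to 483 for the flank.

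Between dorsal and ventral skin the epidermis covariate turned the sign of WNT5B (0.26), WNT9B (-0.40), FZD7 (0.13), LRP5 (0.25), ROR1 (0.17), ROR2 (0.15), DKK3 (0.61) and DVL1 (-0.28), and of these only WNT9B had been called. FZD7 also turned with edgeR (0.005) and TMM rescaling (0.002), LRP5 with TMM rescaling (0.002) and without the flank (0.076), and DVL1 without the flank (-0.026). Leaving out a replicate number gave log2 fold changes of -0.17 to 0.17 for FZD7, -0.06 to 0.03 for LRP5, -0.10 to 0.02 for ROR2, -0.043 to 1.16 for RSPO1, -1.76 to 0.41 for APCDD1L, -0.075 to 0.12 for DVL1 and 0.15 to 0.69 for WNT16. Leaving out 1 library gave -0.02 to 0.62 for WNT16, -0.05 to 0.05 for FZD7, -0.073 to 0.087 for LRP5, 0.30 to 1.198 for RSPO1, -0.16 to 0.02 for ROR2 and -0.04 to 0.12 for DVL1. The cause was not tested, apart from fits with fewer libraries. In the comparisons between locations the replicate block changed no call of a member other than those printed with the results. It called 28 members for any location against 21 without it. The share of all genes called by that blocked F test is not given here. Between dorsal and ventral skin the block raised the calls over all genes tested from 2409 to 4084. With 12.9 to 23.0 M reads per library, members such as ROR1, WNT9B and WNT4 rest on few reads in most libraries.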
